A study of Mus musculus with 5 samples.

Results

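The AP-1 family genes were described in cells sorted from the embryonic mouse lung. The members were Fos, Fosb, Fosl1, Fosl2, Jun, Junb, Jund, Atf3, Maff and Batf, taken by their gene symbols, and every probe set annotated to a single one of these symbols was used. All 10 members were on the array, through 14 of 45037 probe sets, and they are 10 of 18193 genes with a probe set of their own. There was 1 group of samples, with 5 samples labelled as biological replicates on 1 array each. The cells were GFP+ cells isolated by flow cytometry from the lungs of E17.5 embryos that carry FOXJ1-GFP, a transgene in which FOXJ1 regulatory sequence drives GFP in multiciliated cells. The embryos came from matings of FOXJ1-GFP mice with the outbred ICR strain, and the labels name no drug or other agent. Lungs were dissociated with trypsin and EDTA before the sort. The labels do not say whether the replicates came from separate litters or how many embryos made up a replicate. The p-values given here set the height of a mean above a background level, described below, against the spread of these 5 samples. That spread may be technical, and the p-values do not address differences between the arrays. No second cell population and no undissociated lung was analysed here, so a level in the intact airway and a level acquired during dissociation and sorting cannot be told apart.

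AP-1 is a family of transcription factors that bind DNA as dimers through a basic region and a leucine zipper. FOS proteins pair with JUN proteins, JUN proteins also pair with each other, and ATF3, BATF and the small MAF protein MAFF use zippers of the same type. Fos, Fosb, Jun, Junb, Atf3 and Maff are immediate early or stress-inducible genes that many cells, lung epithelium among them, switch on within minutes of growth factors, injury or handling, whereas Jund is known for steady expression. Induction of Fos runs largely through serum response factor at CArG boxes and through CREB and ATF proteins at cyclic AMP response elements, whose core is TGACG. Jun is induced in part by JUN and ATF2 at a variant of that element, TGACATCA.

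Promoter sequence was read for the members that were lowest on the array of replicate 4, as described further on, to show the start site region of the genes that moved together. Windows from 250 bases before to 50 bases after the gene start were in the RefSeq table of the GRCm38.p6 build for 9 of the 10 members, 11 windows in all, since Maff has 3 starts and Fosl1 has none there. The sequences below lie at chr12:85473640-85473939 on the plus strand (Fos), chr7:19309996-19310295 on the minus strand (Fosb), chr4:95052173-95052472 on the minus strand (Jun), chr1:191183284-191183583 on the minus strand (Atf3) and chr15:79347270-79347569 on the plus strand (Maff, the middle start). Each is written 5′ to 3′ on the strand of the gene. Capitals mark matches on either strand to TGACG, TGACGTCA, which contains it, or TGACATCA.
Fos: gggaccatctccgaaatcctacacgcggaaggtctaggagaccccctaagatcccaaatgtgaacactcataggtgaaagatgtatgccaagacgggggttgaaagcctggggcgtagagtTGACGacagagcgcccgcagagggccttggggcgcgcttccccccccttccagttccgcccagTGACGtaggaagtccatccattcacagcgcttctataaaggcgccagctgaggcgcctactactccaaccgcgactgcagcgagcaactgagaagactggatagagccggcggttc
Fosb: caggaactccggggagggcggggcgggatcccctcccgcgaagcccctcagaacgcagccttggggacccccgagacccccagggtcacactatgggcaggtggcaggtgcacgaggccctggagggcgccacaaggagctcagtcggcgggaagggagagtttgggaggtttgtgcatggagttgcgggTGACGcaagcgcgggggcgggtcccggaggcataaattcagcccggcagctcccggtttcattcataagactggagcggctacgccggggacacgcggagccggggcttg
Jun: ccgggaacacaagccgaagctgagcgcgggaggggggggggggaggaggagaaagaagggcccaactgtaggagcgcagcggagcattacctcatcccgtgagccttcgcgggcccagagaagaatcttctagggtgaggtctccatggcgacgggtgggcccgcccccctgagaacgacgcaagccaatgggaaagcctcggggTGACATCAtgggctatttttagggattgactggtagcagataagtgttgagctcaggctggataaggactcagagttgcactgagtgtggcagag
Atf3: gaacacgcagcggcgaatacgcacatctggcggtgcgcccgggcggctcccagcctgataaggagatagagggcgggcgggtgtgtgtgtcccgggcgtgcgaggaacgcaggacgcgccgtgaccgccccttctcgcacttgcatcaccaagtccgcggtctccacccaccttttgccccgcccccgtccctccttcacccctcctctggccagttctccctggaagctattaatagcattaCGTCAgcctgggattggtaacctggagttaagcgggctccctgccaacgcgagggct
Maff: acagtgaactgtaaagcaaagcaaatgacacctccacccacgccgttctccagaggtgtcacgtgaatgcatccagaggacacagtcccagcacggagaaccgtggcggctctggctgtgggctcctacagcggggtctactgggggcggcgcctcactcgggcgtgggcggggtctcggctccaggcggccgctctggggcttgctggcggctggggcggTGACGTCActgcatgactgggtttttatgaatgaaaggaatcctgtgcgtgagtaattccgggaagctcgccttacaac

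The TGACG core was found in 7 of the 11 windows, those of Fos, Fosb, Junb, Atf3 and Batf and 2 of the 3 of Maff, and in 20.8% of all 32851 windows. With the first base of the gene as position 0, the Fos window held it at -129 to -125 and at -66 to -62, the Fosb window at -60 to -56 and the Atf3 window at -7 to -3 on the opposite strand. The full palindrome TGACGTCA was in the middle Maff window at -29 to -22 and in 1.79% of all windows. TGACATCA lay at -45 to -38 in the Jun window, at -45 to -38 in the last Maff window, and in 3.62% of all windows. The AP-1 site TGANTCA, where N is any base, was in none of the 11 windows and in 7.81% of all. The CArG box was in none of the 11 and in 1.63% of all. Sequence more than 250 bases before a gene start was not searched. The absence of a match therefore does not show that Fos or another member lacks a CArG box farther upstream. A match is a description of the letters, and Batf, which did not move with the others, has a TGACG match as well.

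The 5 arrays were alike over all probe sets, with array medians between 7.18 and 7.26 on the log2 scale. Of 20 genes of ciliated cells, 19 were above background, Foxj1 among them, and the exception was Spag6 at 3.67 ± 0.13 (SD, n = 5 arrays). Markers of other lung cells were also above background, for 9 of 9 genes of alveolar type 2 cells, 12 of 12 of endothelium and 8 of 8 of alveolar type 1 cells. The counts were 11 of 14 for fibroblasts and smooth muscle and 5 of 6 for neuroendocrine cells. The share over all genes was 57.4%. Near that share were white blood cells with 10 of 16, club and goblet cells with 6 of 10 and basal cells with 4 of 8. Red blood cells lay below it with 1 of 6. Whether these signals came from other cells in the sort was not tested, and a level given below belongs to the whole sort. In bulk samples of this kind, fewer cells of a type and less RNA per cell cannot be told apart.

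Above background were 8 of 10 AP-1 members, beside 57.4% of all genes, and 9 of their 14 probe sets, beside 39.7% of all probe sets. The background level was 8.04, and the mean of each probe set over the 5 arrays was set against it in a one-sided limma test with a threshold of 0.05 on the adjusted p. The level lay at the 95th percentile among genes that these cells should lack. The 8 genes were Fos, Fosb, Fosl2, Jun, Junb, Jund, Atf3 and Maff, and Fosl1 and Batf were not called. No ranking of members by level is given, because probe sets differ in how brightly they report the same amount of RNA. The count was 7 when the level was taken from the tissue-restricted genes alone or from the 99th percentile, where Junb lost its call, and 10 with the receptor genes alone.

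Among the FOS proteins, Fos, the founding partner of JUN in the AP-1 dimer, had signals of 14.18, 14.14, 14.19, 14.04 and 14.08 on the arrays of replicates 1 to 5. Its mean was 14.12 ± 0.06 (SD, n = 5 arrays; adjusted p = 1.41e-10, limma). The arrays of replicates 1 to 3 all lay above those of replicates 4 and 5, although the whole span was 0.14, a 1.11-fold difference. Fosb, whose product pairs with JUN proteins in the same way and which also gives rise to a shorter splice form, had signals of 12.71, 12.75, 12.62, 12.17 and 12.50. Replicate 4 was again the lowest and the span was larger, 0.59 or 1.50-fold (mean 12.55 ± 0.24).

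Fosl1 encodes FRA-1, a FOS protein that lacks a transactivation domain and is itself a target of AP-1. It varied more between arrays than any other member, with signals of 8.22, 8.62, 8.09, 7.11 and 7.50 on its brighter probe set. Replicates 1 to 3 were above the background level and replicates 4 and 5 below it, the mean lay 0.13 below (-0.13, mean 7.91 ± 0.60, adjusted p = 1.0), and replicate 2 exceeded replicate 4 by 1.51, or 2.84-fold. The other Fosl1 probe set gave 6.85, 7.33, 6.44, 5.99 and 6.62 (6.65 ± 0.49), with the same highest and lowest arrays and a 2.53-fold span. Fosl1 passed the test when only probe sets without a suffix such as _s or _x in their name were used, where the background level was 7.13 (0.78 above it, adjusted p = 0.00735). Without replicate 4, its mean lay 0.10 above the level and did not pass.

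Fosl2 encodes FRA-2, the other FOS-related protein, and its brighter probe set had signals of 11.81, 12.24, 12.11, 11.86 and 11.94 (11.99 ± 0.18). Here replicate 1, not replicate 4, was the lowest, and replicate 2 was the highest. The dimmer Fosl2 probe set gave 7.76, 8.38, 8.18, 7.99 and 7.60 (7.98 ± 0.31) and was not above background. Both probe sets were high in replicates 2 and 3 and low in replicates 1 and 5, and they differed in sign in replicate 4, where their deviations were -0.13 and 0.01.

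**Figure D1:**
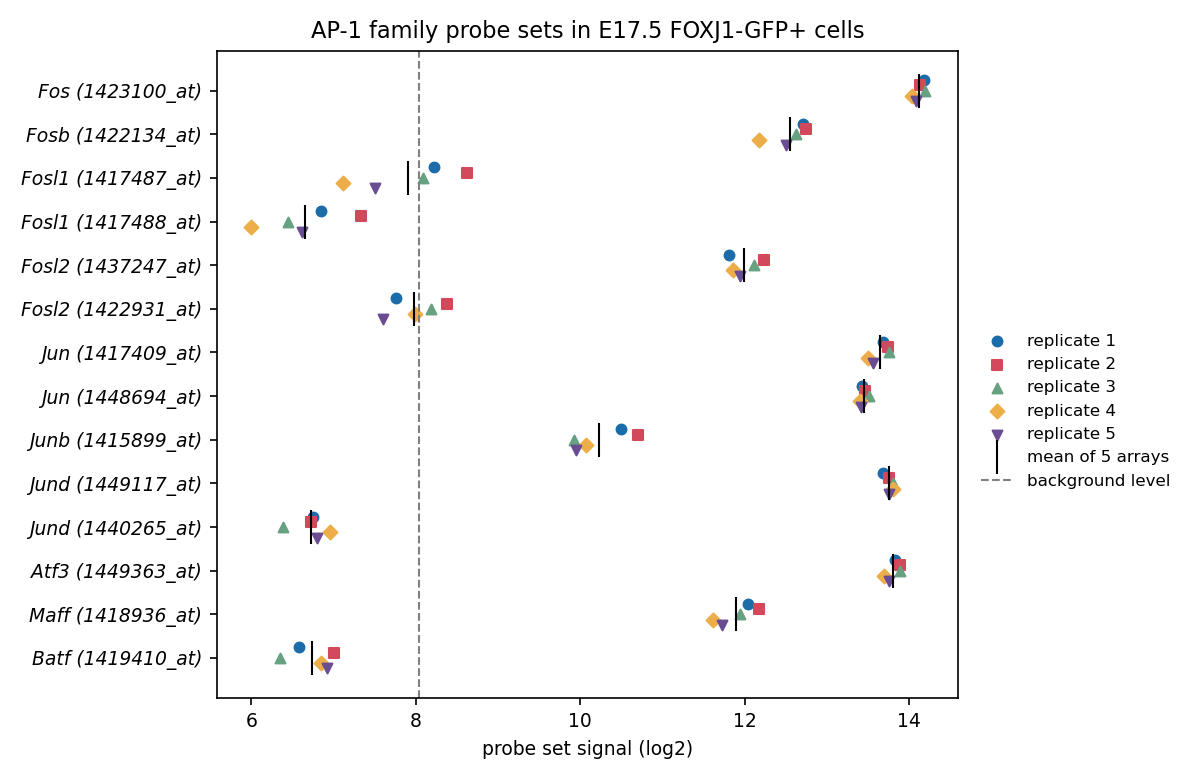
Array by array signals of the 14 AP-1 family probe sets in sorted FOXJ1-GFP+ cells. The log2 signal runs along the horizontal axis, each symbol is 1 replicate array, the vertical tick is the mean and the dashed line is the background level of 8.04. In 8 probe sets replicate 4 is the lowest array, and in 8 replicate 2 is the highest.

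Jun encodes the founding JUN protein, which can bind DNA as a homodimer or with FOS. Its brighter probe set had signals of 13.68, 13.75, 13.76, 13.50 and 13.56 (13.65 ± 0.11). Replicates 1 to 3 were above replicates 4 and 5 here too, as in Fos. On the other Jun probe set the signals were 13.43, 13.47, 13.51, 13.41 and 13.42 (13.45 ± 0.04), a span of 0.09 in which replicate 4 was the lowest but close to replicates 1 and 5.

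Junb, a JUN protein known to oppose JUN at some promoters, had signals of 10.50, 10.70, 9.92, 10.07 and 9.95 (10.23 ± 0.35, adjusted p = 8.15e-07, limma). Its arrays fell into 2 high ones, replicates 1 and 2, and 3 low ones, and replicate 3 was the lowest. Jund, the JUN protein of resting cells, had signals of 13.68, 13.76, 13.80, 13.80 and 13.76 (13.76 ± 0.05). Replicate 4 was the highest array for Jund, with replicate 3 equal to 2 decimals, and replicate 1 was the lowest. On no array did Jund and Junb lie on the same side of their means. The Jund deviations were small, however, at -0.01 in replicate 2 and 0.0 in replicate 5. A second Jund probe set was below background, at 6.75, 6.72, 6.38, 6.95 and 6.80, and was highest in replicate 4 as well.

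Atf3, a stress-inducible repressor and partner of JUN, had signals of 13.83, 13.89, 13.89, 13.70 and 13.76 (13.81 ± 0.08). Maff, a small MAF protein without a transactivation domain that pairs with itself or with CNC factors, had signals of 12.04, 12.17, 11.95, 11.61 and 11.72 (11.90 ± 0.23). In both genes replicates 1 to 3 lay above replicates 4 and 5. Batf, which pairs with JUN and is known from lymphocytes and dendritic cells, had signals of 6.58, 7.00, 6.35, 6.85 and 6.92 (6.74 ± 0.27, adjusted p = 1.0) and lay below background (-1.30). Its lowest array was replicate 3. Of the white blood cell markers, Ptprc, which encodes CD45, was at 7.33 ± 0.58 and not above background, and Cd68 and Csf1r were above it.

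A majority of the members shared an order of the replicate arrays. Fos, Fosb, Fosl1, Jun, Atf3 and Maff lay above their own means in replicates 1, 2 and 3 and below them in replicates 4 and 5, 6 of 10 members beside 3.51% of all genes. For Fosl1 and Jun this holds on the brighter probe set only. The second probe set of Fosl1 deviated by -0.20 in replicate 3, and that of Jun by -0.02 in replicate 1. Replicate 4 gave the lowest signal for the same 6 members, beside 14.4% of all genes, and replicate 2 gave the highest for 6 members, beside 20.0% of all genes. Fosb, Fosl1 and Maff had both, 3 of 10 members beside 4.88% of all genes. These patterns were picked after the values had been seen and carry no test, and with 5 arrays no correlation is given. Among pairs of these 6 genes, the root mean square difference between deviations ran from 0.03 for Fos and Atf3 to 0.49 for Fos and Fosl1, and the pairs with Fosl1 lay at 0.33 or more. This measure is small wherever both genes vary little, as for Fos and Jund at 0.08, which were on the same side of their means on only 1 array.

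**Figure D2:**
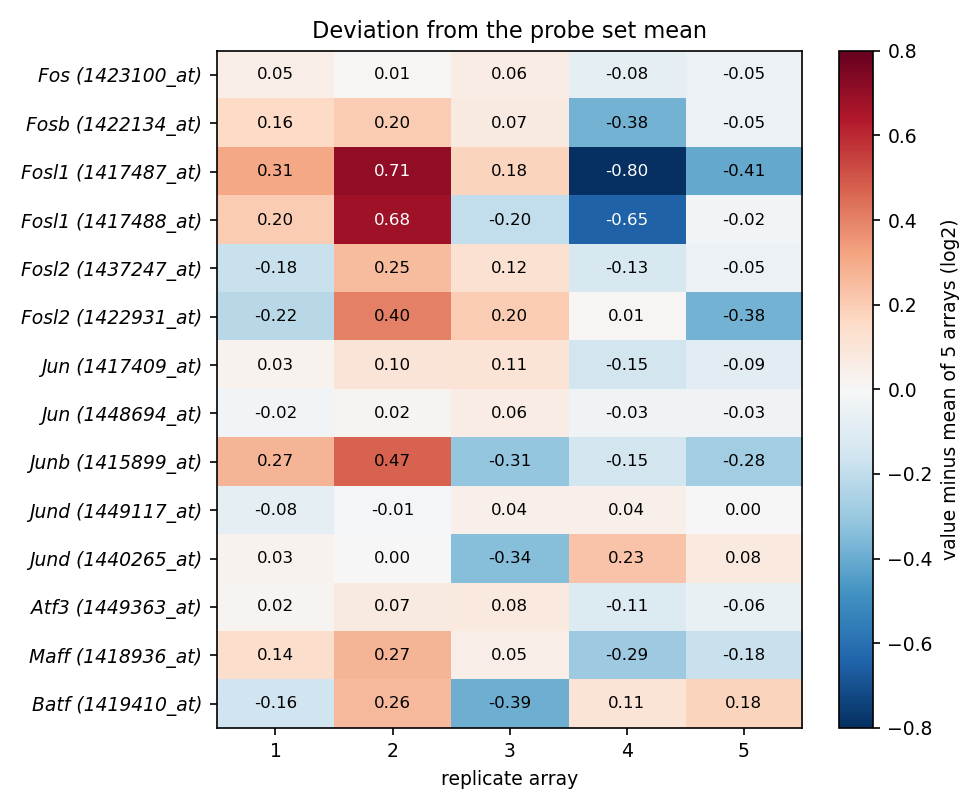
Deviation of each AP-1 family probe set from its own mean on the 5 arrays. Rows are probe sets, columns are replicate arrays, and colour and number give the value minus the mean of 5 arrays in log2 units. In replicate 2, 12 of 14 probe sets are positive, and in replicate 4, 10 of 14 are negative, the others being both of Jund, Batf and the dimmer one of Fosl2.

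The size of the shared movement differed between members. Replicate 2 exceeded replicate 4 by more than 1.25-fold (0.32 on the log2 scale) for 5 of 10 members, beside 13.0% of all genes, and for no member was the reverse true. These were Fosl1 at 2.84-fold, Junb at 1.54-fold, Fosb at 1.50-fold, Maff at 1.47-fold and Fosl2 at 1.31-fold. Fos, Jun and Atf3 differed by 1.07-fold, 1.19-fold and 1.14-fold, and Jund by 0.97-fold. Each of these ratios compares a single array with another and has no error of its own. The median difference was 0.32 over the members and -0.01 over all genes.

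Averaged over the 8 members above background, the deviation was 0.05, 0.17, 0.03, -0.16 and -0.09 in replicates 1 to 5, a range of 0.33. Other short lists had ranges of this size or larger, such as 0.37 over 6 club and goblet cell genes, 0.41 over 8 genes of alveolar type 1 cells and 0.95 over 12 of endothelium, so the size of the range is not particular to the family. The range was 0.21 without replicate 2, the array that moved it most, and 0.27 without replicate 4. Over all 10 members the range was 0.43. The variance of this mean was 3.7 times what genes moving independently would give, where 1 would be independence. A value of 8 would need 8 genes of equal SD that moved fully together. With unequal SDs, as here, the most that can be reached is lower. The same ratio was 3.7 over 13 heat shock genes, 7.3 over 9 alveolar type 2 genes and 10.1 over 12 endothelial genes. The most it can reach grows with the number of genes, so these sizes cannot be compared directly. A ratio above 1 was not particular to the family. Junb, Fosl2 and Jund each had another order of arrays.

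The spread of single members was read beside genes of like level. The median SD of the 8 members was 0.15, as for all genes above background at 0.15, and it was 0.10 without replicate 4. Fos had an SD of 0.06 beside a median of 0.05 for the 89 genes between 14 and 15. Jun, Atf3 and Jund had SDs of 0.11, 0.08 and 0.05, beside 0.08 for the 511 genes between 13 and 14. Fosb had an SD of 0.24 beside 0.11 for genes between 12 and 13. Maff at 0.23 and Fosl2 at 0.18 lay above the median of 0.13 for genes between 11 and 12, and Junb at 0.35 above that of 0.16 between 10 and 11. The highest signal in the whole table was 15.24. Whether the small spread of the brightest members came from the measuring range of the array was not tested.

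**Figure D3:**
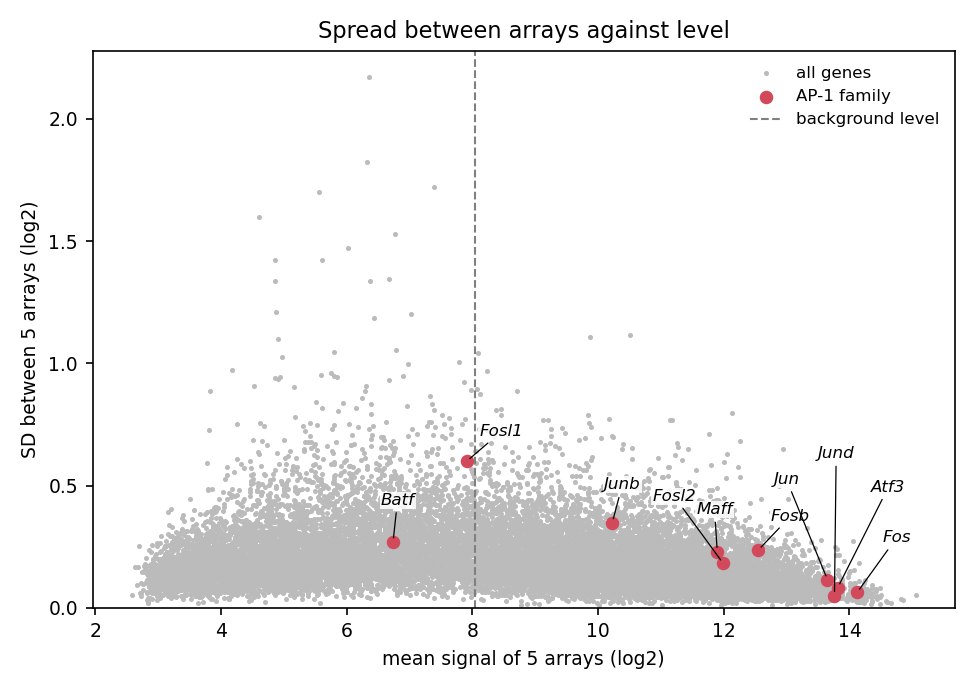
SD between the 5 arrays against mean log2 signal for 18193 genes (grey) and the AP-1 family (red). The dashed line is the background level of 8.04. Fosl1 has the largest SD of the members at 0.60, and Fos, Jun, Jund and Atf3 lie at the bright end with SDs of 0.11 or less.

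Other immediate early genes had the same highest and lowest arrays as the AP-1 mean. Of 26 measured, 25 were above background, beside 57.4% of all genes. The mean deviation of the 25 was -0.02, 0.26, 0.09, -0.22 and -0.10 in replicates 1 to 5. Replicate 4 was the lowest array for 15 of 26, beside 14.4% of all genes. Replicate 2 was the highest for 16, beside 20.0% of all genes. Egr1, a zinc finger factor induced together with Fos, had signals between 13.97 in replicate 4 and 14.11 in replicate 1, also a narrow span. Its relatives spread more widely, with Egr2 at 12.25, 12.52, 12.17, 11.74 and 11.86, and Egr3 at 11.31, 11.84, 11.56, 10.57 and 10.93. The orphan receptor gene Nr4a1 was highest in replicate 3 (12.61) and lowest in replicate 5. Myc was the immediate early gene that was not above background, at 8.28 ± 0.57, and it also had its lowest signal in replicate 4 (7.38) and its highest in replicate 2 (8.96).

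Genes known to switch the response off again had the same highest and lowest arrays. The feedback list held dual-specificity phosphatases, which remove phosphate from MAP kinases, ZFP36 proteins, which destabilise AU-rich transcripts such as that of Fos, and related inhibitors. Of its 21 genes, 19 were above background, beside 57.4% of all genes. The mean deviation of the list was 0.02, 0.19, 0.07, -0.19 and -0.10. Replicate 4 was lowest for 11 of 21 genes, beside 14.4% of all genes. More than 1.25-fold higher in replicate 2 than in replicate 4 were 12 of 21, beside 13.0% of all genes, and for none was the reverse true. Dusp1 had signals of 13.99, 13.97, 13.95, 13.72 and 13.82, Dusp4 8.79, 8.70, 8.63, 8.28 and 8.52, and Dusp5 11.91, 12.35, 11.78, 11.37 and 11.61. All 3 were lowest in replicate 4. Not above background were Dusp2 at 6.59 ± 0.12 and Dusp8 at 8.18 ± 0.45.

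Of the upstream inputs, 20 of 21 measured genes were above background, beside 57.4% of all genes. The list as a whole varied little, with a range of 0.10. Srf, which encodes serum response factor, was at 12.20, 12.40, 12.18, 11.69 and 11.98, a 1.64-fold difference between replicates 2 and 4. Its cofactors of the TCF group did not share this order, since Elk1 was lowest in replicate 3, Elk3 in replicate 1 and Elk4 in replicate 5. Mrtfa, named here because it ran the other way, had signals of 9.28, 9.17, 9.71, 9.85 and 9.50. Its ratio of replicate 2 to replicate 4 was 0.62. Mrtfa and Egfr, the latter named here for its spread, had SDs of 0.29 and 0.39 and varied more than Srf at 0.27. Mapk10, a JNK gene known from neurons, was not above background at 7.59 ± 0.21.

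The bZIP partners and relatives had 21 of 24 genes above background, beside 57.4% of all genes, and a range of 0.15. Jdp2, a repressor that pairs with JUN, was at 9.53 ± 0.15 and highest in replicate 4, and Atf2, a partner of JUN that is activated by phosphorylation, was at 11.43 ± 0.07. Batf2 at 5.87 ± 0.25, Batf3 at 5.80 ± 0.21 and Atf7 at 8.12 ± 0.19 were not above background. Of the genes known as AP-1 targets, 12 of 21 were above background, a share of 57.1% beside 57.4% of all genes. The 12 had deviations of -0.10, 0.27, 0.12, -0.24 and -0.05. Of all 21, 6 were lowest in replicate 4, beside 14.4% of all genes, and 12 were highest in replicate 2, beside 20.0%. The order of the 6 AP-1 members, above the mean in replicates 1 to 3 and below it in 4 and 5, held for 0 of 21 targets. It held for 7 of 26 other immediate early genes, 6 of 21 feedback genes and 3.51% of all genes. Plaur, the urokinase receptor, was at 8.56 ± 0.28 and above background, and among those that were not were the proteases Plau at 4.57 ± 0.19, Mmp3 at 5.63 ± 0.27, Mmp9 at 5.67 ± 0.14, Mmp10 at 5.29 ± 0.03 and Mmp13 at 2.91 ± 0.25. These lists were chosen with earlier results of the same arrays known, so their counts describe the genes and are not independent support.

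**Figure D4:**
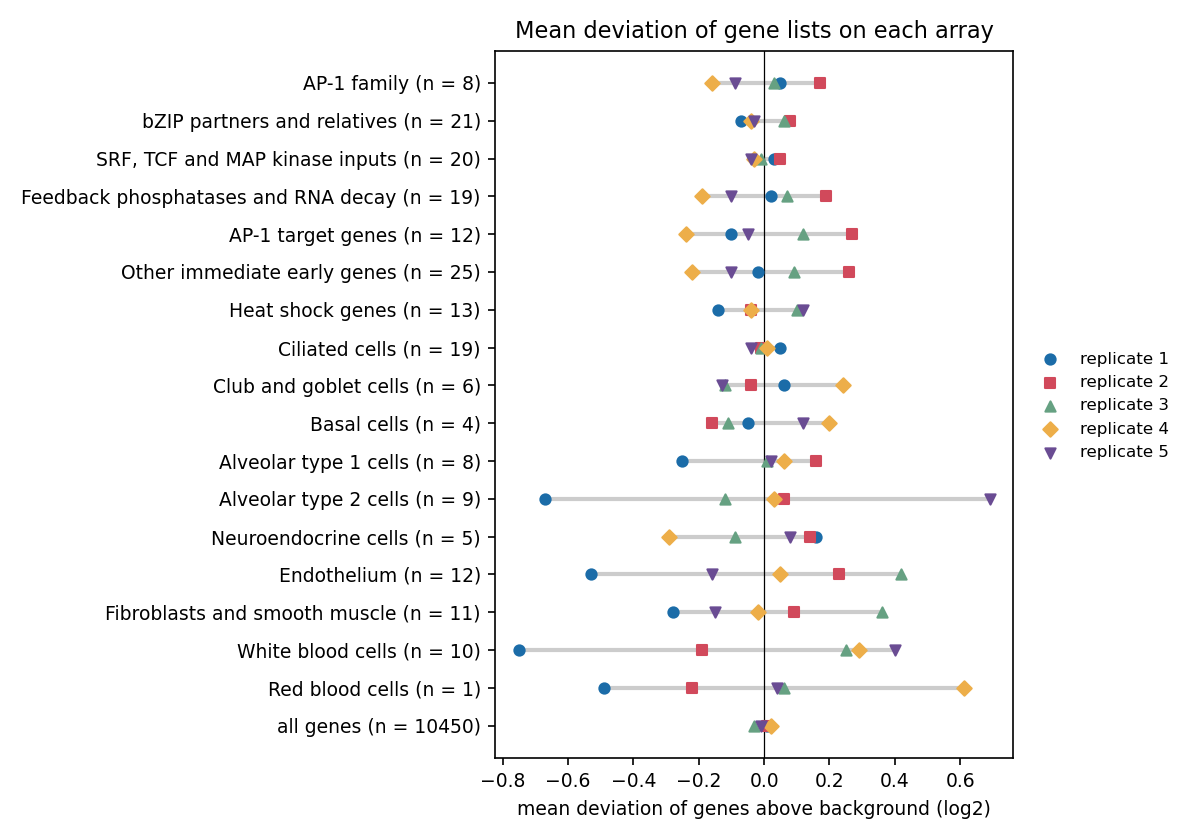
Where each gene list lay on each array. The horizontal axis gives the log2 deviation from a gene's own mean, averaged over the list's genes above background (n), each symbol is 1 replicate and the grey bar spans the 5 arrays. The AP-1 family, the other immediate early genes, the feedback genes and the AP-1 targets run from replicate 4 to replicate 2, while the ciliated cell list spans 0.10.

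Lists outside the AP-1 pathway mostly had other highest and lowest arrays. Alveolar type 1 genes shared replicate 2 as the highest array, at 0.16, and were lowest in replicate 1, at -0.25. Replicate 2 was the highest for 5 of these 8 genes, beside 20.0% of all genes. Genes of fibroblasts and smooth muscle ran from -0.28 in replicate 1 to 0.36 in replicate 3. Ciliated cell genes deviated by 0.05, -0.01, -0.01, 0.01 and -0.04, and heat shock genes by -0.14, -0.04, 0.10, -0.04 and 0.12. Alveolar type 2 genes ran from -0.67 in replicate 1 to 0.69 in replicate 5, endothelial genes from -0.53 in replicate 1 to 0.42 in replicate 3, and white blood cell genes from -0.75 in replicate 1 to 0.40 in replicate 5. Over all measured genes of these 3 lists, the mean signal ranged from 11.03 to 12.39, from 10.47 to 11.42 and from 7.93 to 9.01. The 4 basal cell genes above background had the reverse extremes, lowest in replicate 2 at -0.16 and highest in replicate 4 at 0.20, and the 6 club and goblet cell genes were highest in replicate 4 as well, at 0.24. The 5 neuroendocrine genes above background were lowest in replicate 4, at -0.29, and highest in replicate 1, at 0.16, and the mean signal of the 6 measured ranged from 9.29 to 9.61.

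Control probe sets at both ends of a transcript give a sign of RNA quality. The 3′ signal exceeded the 5′ signal of Actb by 0.61, 0.51, 0.68, 0.72 and 0.67 in replicates 1 to 5, least in replicate 2 and most in replicate 4. For Pcx the excess was 3.71, 3.36, 3.50, 3.85 and 3.73, with the same extremes. For Gapdh it was largest in replicate 3, at 1.43, and for Tfrc it was smallest in replicate 4, at 3.04. The part of these 3′ and 5′ differences and of the basal, club and neuroendocrine genes in the order of the AP-1 genes was not tested.

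Outside the family, the genes whose deviations were nearest to the AP-1 mean were Map4k4, Rab5c, Fam102b, Abhd17c and Zfp36. The root mean square difference over the 5 arrays was 0.026, 0.028, 0.032, 0.032 and 0.033, among 6220 genes above background that varied at least as much as the AP-1 mean. Zfp36, one of the feedback genes, had signals of 12.94, 13.14, 13.00, 12.81 and 12.83. Junb, the member above background with the largest SD, was nearest to Tango6, Cdh13, Stambp, Kctd8 and Bag4, with differences between 0.043 and 0.097 among 624 genes. None of these 5 was in the lists of immediate early or feedback genes. With 5 arrays, many genes can come near any given order.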

How the data were processed

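RNA of 5 sorted samples was amplified and labelled with biotin by the authors, hybridised to 1 Affymetrix mouse array per sample and analysed with Bioconductor. The deposited table holds log2 signals for every array, a scale inferred from its values, which run from 2.37 to 15.24. For its summarisation and normalization, the method was not given in the sources used here. Because there were few arrays, precision is limited. 

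Probe sets with 1 gene symbol in the platform annotation were used (34945 of 45037 that are not controls), with symbols checked through Entrez identifiers (99.42% matched, 0 changed). A gene was represented by its probe set with the highest mean. As background level, the 95th percentile of the means was taken over 134 genes, 74 olfactory, vomeronasal or taste receptors and 60 tissue-restricted genes, of which 6 were themselves called. Lhb, Ttr, Mbp and Pomc, with means over 10, set its upper end. Levels were tested one-sided in limma 3.58.1 (lmFit, then eBayes; R 4.3.3) with Benjamini-Hochberg adjustment over all 45037 probe sets. The step was tested on simulated data. Deviations were computed in Python 3.11.15 with numpy 2.4.6 and pandas 2.3.3. Named were all members, the first 4 measured genes of a described list, up to 5 of its genes not above background, and the 5 genes nearest to a profile. Mrtfa, Egfr and the genes under other observations were picked after their values were seen. Fold ratios between arrays are powers of 2 of log2 differences. The members and lists were chosen with earlier results of these data known. Alternatives were other probe set rules, normalizations, background levels and calls, and each replicate left out. Genes of a list without a probe set of their own were not analysed here.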

Additional observations from a re-analysis of the deposited data

How the results depend on the processing

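Every count of AP-1 genes above background lay between 7 and 10, beside 26.9% to 81.9% of all genes, and leaving out a replicate left it at 8. The count of AP-1 probe sets above background was 14 with the receptor genes alone as background and 14 with the cut-off of 5, against 9. Of all 45037 probe sets, 32926 and 32517 were called under these settings, against 17879. The AP-1 probe set count was 9 without each replicate in turn. The range of the AP-1 mean deviation was 0.46 over probe sets without a suffix, where Fosl1 entered, and 0.21 to 0.33 with a replicate left out. The median SD was 0.21 over all 10 members and 0.22 over all 14 probe sets, and 0.10 to 0.16 with a replicate left out, lowest without replicate 4. Fosl1 turned from below to above the level over probe sets without a suffix (0.78), with the receptor genes (2.98), with the cut-off of 5 (2.91) and without replicate 4 (0.10), and leaving out a replicate gave -0.30 to 0.10. Batf did so with the receptor genes (1.81) and with the cut-off of 5 (1.74), and Junb turned below the level with the 99th percentile (-0.35). Junb kept its direction but not its call with the tissue-restricted genes alone (0.19, adjusted p = 0.421, limma). The number of members above their means in replicates 1 to 3 and below them in 4 and 5 was 5 where a gene was the average of its probe sets and 6 under the other alternatives, which were chosen after seeing the data. The number of members highest in replicate 2 was 6 on the deposited values, 7 with quantile normalization and 9 with each array centred on its median. It therefore depends on the normalization. Near ties were present, with Jun at 13.75 and 13.76 and Atf3 at 13.89 and 13.89 in replicates 2 and 3. The share of all genes highest in replicate 2 was not computed after centring. For the other lists, 24 counts of genes above background were lower and 8 higher by more than 1.5 times under an alternative, 20 and 8 of them with another background level. The causes were not tested. No paired analysis was possible because all samples belong to 1 group.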

Other observations

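Among the genes known as AP-1 targets, Ereg, Hmox1 and Hbegf had the largest differences between the arrays of replicates 2 and 4. Ereg, which encodes epiregulin, had signals of 7.74, 8.48, 7.26, 6.46 and 7.83 in replicates 1 to 5, a 4.06-fold difference between replicates 2 and 4, and its mean of 7.55 ± 0.75 (SD, n = 5 arrays) was not above background. Hmox1, which encodes the heme-degrading enzyme heme oxygenase 1, had signals of 8.55, 9.17, 8.78, 7.71 and 8.95, a 2.75-fold difference, and was above background. Hbegf, which encodes heparin-binding EGF-like growth factor, had signals of 9.87, 10.46, 9.83, 9.21 and 9.87, a 2.38-fold difference, and was above background. Nr4a3, an orphan nuclear receptor gene, differed by 3.62-fold between the same arrays and Dusp10, a phosphatase of JNK and p38, by 1.96-fold. Il6 ran the other way, with 5.51 in replicate 2 and 6.13 in replicate 4, and was not above background. These genes were chosen after their values were seen.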
